A study of Homo sapiens with 4 samples.

Results

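AGR2, TSPAN8, PAEP, ANXA10, RNASE1, CHI3L2 and RNF128 are 7 genes of secretory or mucosal epithelia that read higher in MDA-MB231 cells carrying an shRNA against PIAS1 than in control cells. They were picked from the 11963 genes of the array because they were higher with PIAS1 shRNA in stem cell media (SCM), with no numerical threshold given, so their values in SCM describe the choice and are not a test of it. Of 22277 probe sets on the array, 8 had one of these symbols as their only gene, 2 of them for RNASE1 and 1 for each of the other genes.

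The MDA-MB231 line comes from a human breast cancer and is of basal, mesenchymal type. A control shRNA or PIAS1 shRNA2 was expressed stably from the U6 promoter of a lentiviral vector that confers puromycin resistance, so all the cells carried a vector and had been drug selected. Control shRNA cells and PIAS1 shRNA2 cells each spent 30 h either in DMEM containing 10% FBS or in SCM, a serum-free medium with EGF, basic FGF and insulin, and 1 microarray was hybridised for each of the 4 conditions. Only 1 shRNA line stood on each side of these arrays, so from them a difference between the lines cannot be told apart from the loss of PIAS1. For PAEP the authors also report induction by quantitative PCR in another PIAS1 shRNA line, which is not on these arrays. With 1 array per condition there was no replicate spread, and no p-value is given anywhere.

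PIAS1 is a SUMO ligase that binds transcription factors and chromatin and can repress transcription. The 7 genes, picked as genes of secretory or mucosal epithelia, encode proteins of different kinds. AGR2 is a disulfide isomerase of the endoplasmic reticulum that mucus-secreting cells need for mucin folding, and PAEP, RNASE1 and CHI3L2 are secreted proteins. TSPAN8 and RNF128 span membranes, and ANXA10 is an annexin known from gastric epithelium. The group thus rests on the label under which the genes were picked and not on secretion of each product. Their tissue of expression was not measured here.

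Values below are MAS5 signals, linear intensities that were already scaled to the same trimmed mean on each array. A signal of 182 was taken as the background floor, the highest over the 4 arrays of the 75th percentile of probe sets for genes of other tissues. Where the dimmer of a pair of signals lay under the floor, the ratio was set against the floor and is a lower bound, and where both did, no ratio is given. By this measure 64.6 to 68.3% of probe sets on an array were above the floor, and the median signal of an array ran from 568.6 to 605. The 3 PIAS1 probe sets read 37.0, 77.9 and 31.5% of control in SCM and 37.0, at most 26.7 and 23.8% in DMEM, so PIAS1 itself was lower with the shRNA by every probe set in both media. All 7 markers of MDA-MB231 cells, VIM and CD44 among them, were above the floor on all 4 arrays. Among 11 luminal breast markers, 9 were above the floor on at least 1 array, with PGR and FOXA1 under it on all 4. The summed signal of the 11 was 53946 and 58644 in DMEM (control, knockdown) against 41896 and 38349 in SCM. KRT18 alone read 29317 and 33980 in DMEM and 16934 and 16773 in SCM, so the sums follow this keratin in large part. None of the 11 was 2-fold higher or lower with PIAS1 shRNA2 in either medium by its value or bound. Between the media in control cells 4 were 2-fold higher in SCM, beside 8.26% of all genes, and none was 2-fold lower. Between the media in knockdown cells 4 were 2-fold higher in SCM, TFF1 and ERBB3 among them, beside 8.48% of all genes. Another 3 were 2-fold lower in SCM, KRT18 among them, where the 5th percentile of all genes was a log2 ratio of -1.29. The part of luminal cells in any of these values was not tested.

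The sequences just before the transcription starts are shown first. The 7 genes were picked by expression and as genes of secretory or mucosal epithelia, without use of promoter sequence. Whether such a choice carries a CG content with it was not tested. The starts of all genes, given beside them, are not matched for tissue or signal. RefSeq (GRCh38.p14) lists 11 starts for the 7 genes. In the 300 bases from 250 before to 50 after a start, the median count of CG dinucleotides was 3 over these 11 starts against 14 over 35116 starts of 27305 genes. The median GC content was 45.3% against 58.7%, and the median ratio of observed to expected CG was 0.22 against 0.58. The 150 bases before 4 of the starts are printed 5′ to 3′ on the strand of the gene, with every CG in capitals, to show the range. They belong to AGR2 (chr7:16805000-16805149, minus strand), ANXA10 (chr4:168092387-168092536, plus strand), PAEP (chr9:135561606-135561755, plus strand) and the second listed start of RNF128 (chrX:106726551-106726700, plus strand), whose last C pairs with a G at the start itself.
AGR2: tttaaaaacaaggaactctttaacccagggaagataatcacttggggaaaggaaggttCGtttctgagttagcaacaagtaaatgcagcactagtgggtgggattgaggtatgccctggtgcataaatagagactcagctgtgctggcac
ANXA10: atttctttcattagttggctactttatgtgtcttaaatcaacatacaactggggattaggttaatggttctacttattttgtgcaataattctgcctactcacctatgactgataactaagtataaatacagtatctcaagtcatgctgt
PAEP: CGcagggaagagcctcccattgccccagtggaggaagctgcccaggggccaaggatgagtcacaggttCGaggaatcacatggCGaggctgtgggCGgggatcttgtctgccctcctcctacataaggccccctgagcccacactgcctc
RNF128: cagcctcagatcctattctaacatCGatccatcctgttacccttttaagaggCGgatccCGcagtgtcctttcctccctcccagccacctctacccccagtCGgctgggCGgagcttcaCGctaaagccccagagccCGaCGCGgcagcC

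ANXA10 had no CG in its whole 300-base window, which lies at the bottom of the distribution over all starts. AGR2 had 6 CG in its window and PAEP 12. The single CG-rich window among the 11 was the second start of RNF128 with 23 CG, while the first start of the same gene, on another stretch of the X chromosome, held 1. The counts were 1 and 3 at the starts of TSPAN8, 5 and 3 at those of RNASE1 and 4 and 3 at those of CHI3L2. All of the 11 windows but that one therefore lay below the median of all starts. Starts of one gene are not independent of each other, the CHI3L2 windows overlap, and which start the cells used cannot be read from the array.

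**Figure D1:**
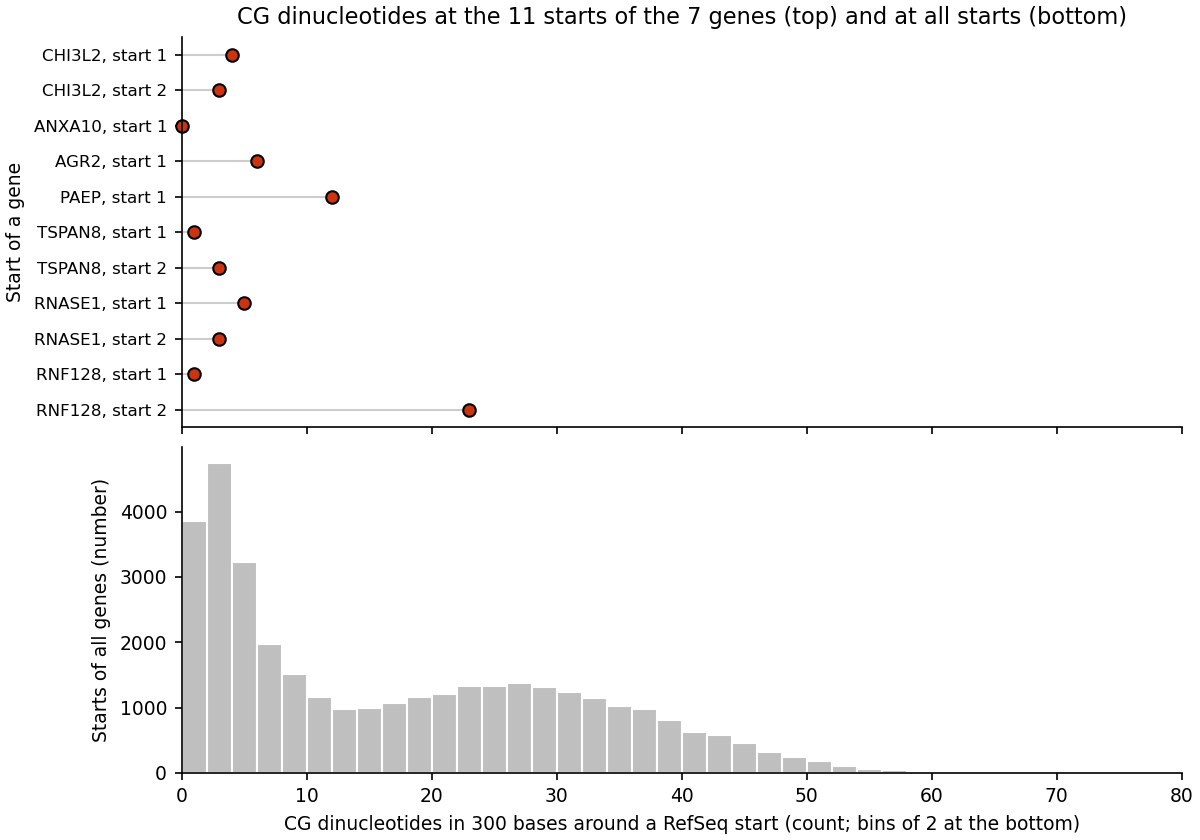
Count of CG dinucleotides in the 300 bases around a RefSeq start, 1 point for each of the 11 starts of the 7 genes (top) and as a histogram over 35116 starts in bins of 2 (bottom). The points sit between 0 and 23, with only the second start of RNF128 above the median of 14 over all starts.

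A set of 5 short motifs was searched on both strands of the same windows, and a match describes the letters only. TATAAA, the core of a TATA box, was in 11.5% of all windows and in 2 of the 11, at base -29 of ANXA10 and at -179 in the second RNF128 window, where a match on the other strand overlaps it at -181. TGANTCA, the AP-1 form, was in 7.71% of all windows and in 2 of the 11, as TGAGTCA at -95 of PAEP and as TGATTCA at -134 of the first RNASE1 start. TTCNNNGAA, the form bound by STAT factors, was in 7.66% of all windows and in 3 of the 11. In PAEP it read TTCGAGGAA at -84, and the overlapping windows of CHI3L2 held 1 shared match, TTCCAAGAA, at -62 from the first start and -116 from the second. TGTTTAC, a form bound by FOXA factors, was in 3.42% of all windows and in both windows of TSPAN8, at -53 and -243, again 1 shared match. A 10-base NF-kappaB form was in 1.91% of all windows and in none of the 11. AGR2 held none of the 5 motifs. No motif was common to the 7 genes.

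AGR2 had the largest measured ratio of the array in the contrast that chose it. Its signal was 341 in control cells in DMEM, 984 in knockdown cells in DMEM, 1123 in control cells in SCM and 8198 in knockdown cells in SCM. The knockdown array in SCM stood well above the other 3, and the control in DMEM was the lowest. In SCM the knockdown signal was 7.30 times the control signal (log2 ratio 2.87), which ranked 1 of 8304 genes above the floor on both arrays. In DMEM, whose arrays the choice did not use, the ratio was 2.88 (log2 1.53) and ranked 14 of 7998. The log2 ratio was thus 1.34 larger in SCM than in DMEM, a difference without an error estimate. AGR2 also read higher in SCM than in DMEM in each line, 3.29-fold in control cells (rank 219 of 8020) and 8.33-fold in knockdown cells (rank 35 of 8112).

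TSPAN8, a tetraspanin of gastrointestinal epithelia and their carcinomas, read 537 in control and 2100 in knockdown cells in DMEM, and 568 and 2929 in SCM. Both knockdown arrays were several-fold above both control arrays, and the media differed little within a line. The knockdown ratio was 3.91 in DMEM (log2 1.97, rank 6 of 7998) beside 5.15 in SCM (log2 2.37, rank 3 of 8304), while the medium ratio was 1.06 in control cells, with a sign that turned under other scalings, and 1.39 in knockdown cells. RNF128, a transmembrane ubiquitin ligase first known from unresponsive T cells as GRAIL, read 127 and 184 in DMEM and 124 and 915 in SCM (control, knockdown). Only the knockdown array in SCM was clear of the floor, with the knockdown array in DMEM just at it. The ratio was at least 5.01 in SCM and at least 1.01 in DMEM, so no difference in DMEM could be read for RNF128 at this floor. Within knockdown cells RNF128 was 4.97-fold higher in SCM than in DMEM (log2 2.31), a value that rests on a DMEM signal at the floor and was 1.14 in log2 with the floor at the 95th percentile of the other-tissue genes. In control cells both signals were under the floor.

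PAEP, the lipocalin glycodelin that endometrial glands secrete, read 20.1 in control and 55.3 in knockdown cells in DMEM, 27.8 in control cells in SCM and 924 in knockdown cells in SCM. It was above the floor on 1 of the 4 arrays. The knockdown ratio in SCM was therefore at least 5.06, and the ratio of the deposited signals, 33.2, rests on a control signal that is not above background. The medium ratio in knockdown cells was likewise at least 5.06. RNASE1, a secreted ribonuclease of the pancreas and of endothelium, read 177 and 305 in DMEM and 52.8 and 553 in SCM (control, knockdown) by its brighter probe set. Both knockdown arrays were above the floor and both control arrays under it. The ratio was at least 3.03 in SCM (10.5 by the deposited signals) and at least 1.67 in DMEM, and within knockdown cells SCM was 1.81-fold above DMEM. The other probe set of RNASE1 read 9.21 and 30.9 in DMEM and 17.8 and 29.8 in SCM, under the floor on all 4 arrays, and gave no ratio.

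CHI3L2, a secreted chitinase-like protein, read 71.9 and 418 in DMEM and 570.05 and 1455 in SCM (control, knockdown). The control in DMEM was the only array under the floor. The knockdown ratio was 2.55 in SCM (log2 1.35, rank 66 of 8304) and at least 2.29 in DMEM (log2 1.20). Unlike TSPAN8, CHI3L2 was also higher with the medium in both lines, at least 3.12-fold in control and 3.48-fold in knockdown cells. The probe sets of PAEP and CHI3L2 are of the type whose probes can match more than 1 transcript, so part of their signal may come from another transcript.

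Of the 3 genes above the floor on all 4 arrays, ANXA10, the annexin, was the one whose knockdown ratio was smaller in SCM than in DMEM. It read 338 in control and 1614 in knockdown cells in DMEM, and 558 and 1710.3 in SCM. Both knockdown arrays were above both control arrays and nearly level with each other. The ratio was 4.78 in DMEM (log2 2.26, rank 3 of 7998) and 3.07 in SCM (log2 1.62, rank 41 of 8304), a difference of -0.64 in log2. Between the media ANXA10 differed 1.65-fold in control cells and 1.06-fold in knockdown cells.

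**Figure D2:**
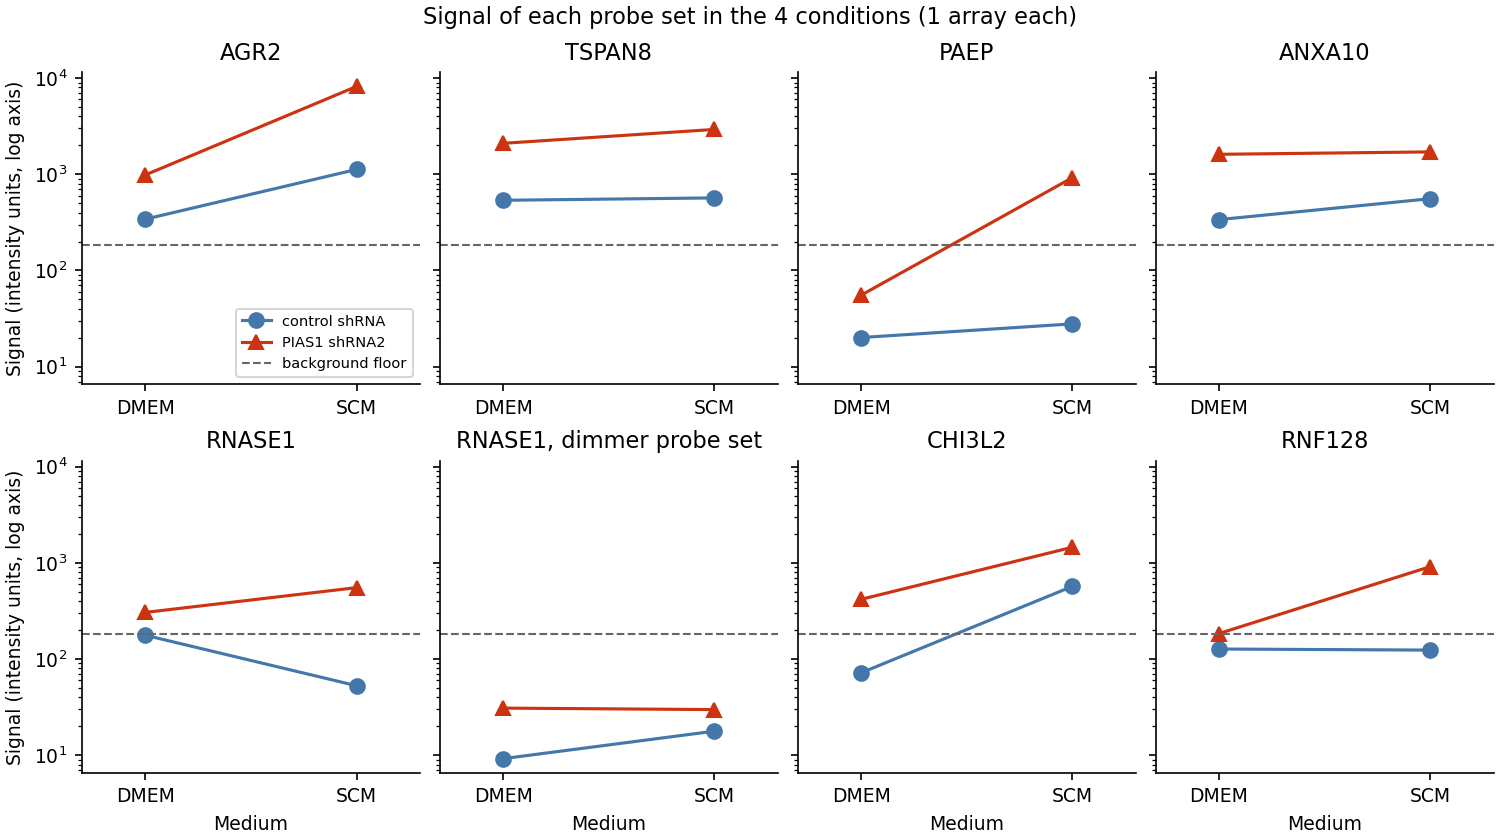
MAS5 signal (intensity units, log axis) of the 8 probe sets in DMEM and SCM, 1 array per point, for control shRNA (circles) and PIAS1 shRNA2 (triangles), with the background floor of 182 as a dashed line. The triangle lies above the circle in every panel and medium. The control signals of PAEP, RNASE1 and RNF128 lie under the floor in both media, and that of CHI3L2 does in DMEM. The PAEP triangle in DMEM and all points of the dimmer RNASE1 probe set lie under it too.

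In SCM, the contrast that chose them, all 7 genes were at least 2-fold above control, where 1.71% of all genes were (204 of 11963), and nothing is read from that. In DMEM, 4 of the 7 were at least 2-fold higher, AGR2, TSPAN8, ANXA10 and CHI3L2, where 1.16% of all genes were (139 of 11963). None of the 7 was 2-fold lower in either medium. Their median log2 ratio in DMEM was 1.20 against 0 over all genes, with bounds counted at their bound. PAEP, which had no ratio, was counted as 0. The DMEM arrays came from the same pair of shRNA lines as the SCM arrays, so they are other arrays but not other lines. By the deposited signals every one of the 7 read higher in knockdown than in control cells in DMEM too, and nothing is read from that count. PAEP was under the floor on both DMEM arrays, and RNASE1, CHI3L2 and RNF128 were under it in control cells. With no floor 5 of the 7 were at least 2-fold higher in DMEM, beside 10.4% of all genes, whose median log2 ratio was then 0.03.

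**Figure D3:**
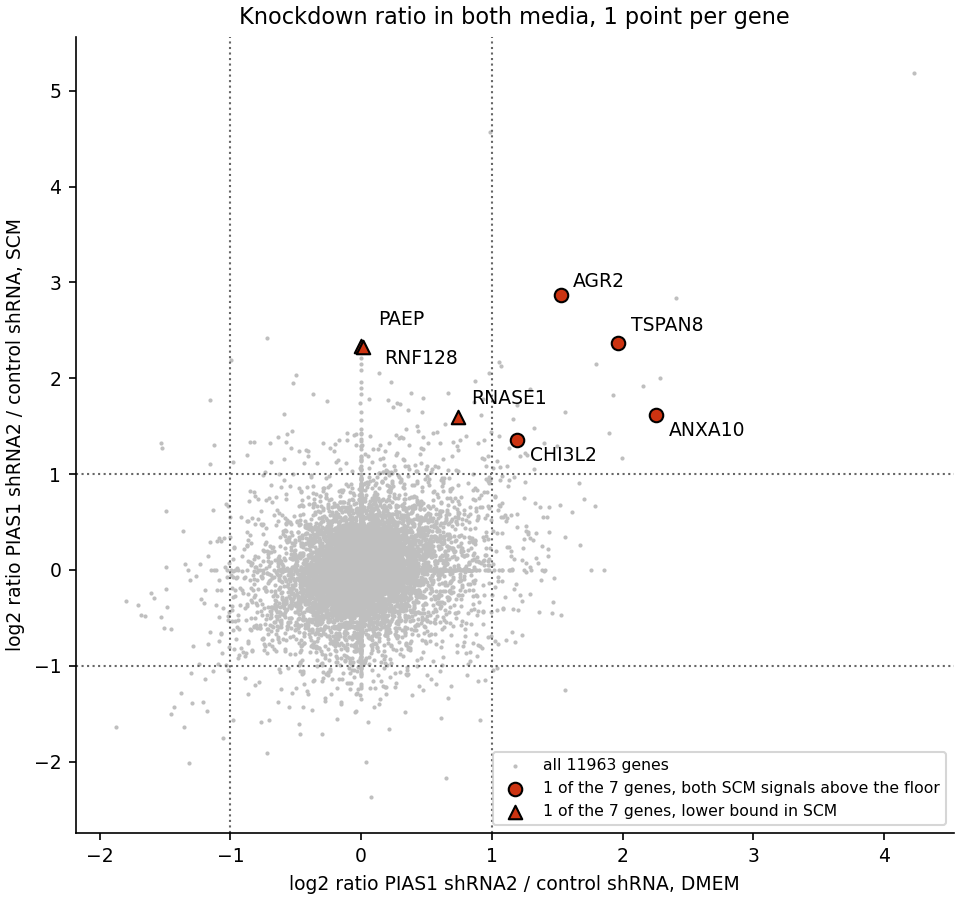
Knockdown over control (log2 ratio of signals) in SCM (vertical) against DMEM (horizontal), 1 grey point per gene for 11963 genes and red points for the 7 genes, with triangles for lower bounds in SCM and dotted lines at 2-fold. AGR2, TSPAN8, ANXA10 and CHI3L2 lie past 2-fold on both axes, while PAEP and RNF128 lie at 0 and 0.01 in DMEM.

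In control cells AGR2 and CHI3L2 were at least 2-fold higher in SCM than in DMEM, 2 of 7 beside 8.26% of all genes. In knockdown cells these were joined by PAEP and RNF128, 4 of 7 beside 8.48% of all genes. Each of these comparisons shares an SCM array with the contrast that chose the genes, so neither is independent of the choice. The median log2 ratio of the 7 was 0.08 in control cells and 1.80 in knockdown cells, against 0 over all genes in both. In control cells PAEP, RNASE1 and RNF128 had both signals under the floor and were counted as 0. The 0.08 is the value of TSPAN8, and the medians of the lines are therefore not compared. ANXA10 had 0.72 in control cells, CHI3L2 at least 1.64 and AGR2 1.72. TSPAN8 and ANXA10 were under 2-fold between media in both lines, and RNASE1 was so in knockdown cells and had no ratio in control cells.

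All 7 genes read highest in knockdown cells in SCM, the array on which they were chosen. The lowest array was the control in DMEM for 5 genes and the control in SCM for RNASE1 and RNF128. AGR2 and CHI3L2 read higher in control cells in SCM than in knockdown cells in DMEM, and the other 5 read the opposite way. Of the 7 genes, 3 were above the floor in control cells in DMEM, 6 in knockdown cells in DMEM, 4 in control cells in SCM and 7 in knockdown cells in SCM. Taking the log2 profile of each gene over the 4 arrays centred on its mean, ANXA10 and TSPAN8 were alike at a root mean square distance of 0.29, and the farthest pair was AGR2 and ANXA10 at 1.12. PAEP and RNF128 lay 0.01 apart, but 3 of their 4 values stood at the floor or just above it.

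**Figure D4:**
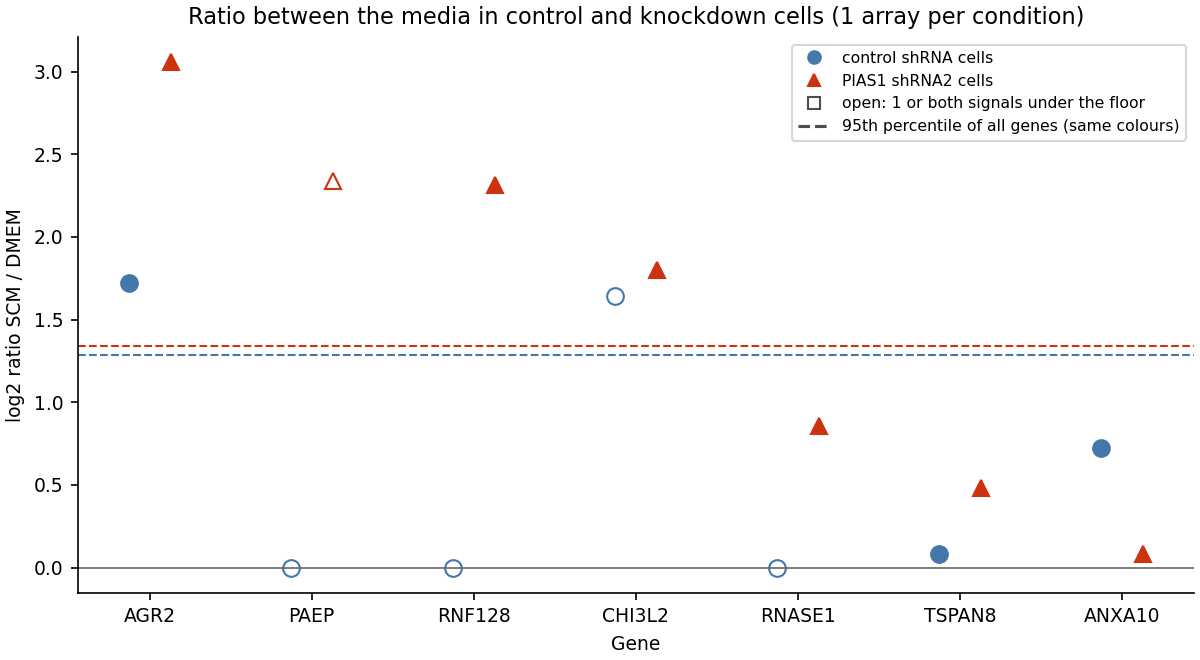
Log2 ratio of SCM over DMEM for each of the 7 genes in control shRNA cells (circles) and PIAS1 shRNA2 cells (triangles), 1 array per condition, with open symbols where 1 or both signals were under the floor (a symbol at 0 then has no ratio) and dashed lines at the 95th percentile of all genes. AGR2 and CHI3L2 lie above the lines in both lines of cells, PAEP and RNF128 in knockdown cells alone, and TSPAN8, ANXA10 and RNASE1 below them.

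Other secretory and mucosal epithelial genes were counted in the same way. Of 39 measured genes on a list of mucins, trefoil factors, antimicrobial and other products of such epithelia, 23 were above the floor on at least 1 array. In SCM 2 reached 2-fold above control with the knockdown and none was 2-fold lower. The 2 are 5.13% of the list beside 1.71% of all genes, a difference of a few genes from which nothing is drawn. A further 6 of the list had only a bound under 2-fold. The median log2 ratio in SCM was 0 with pairs under the floor counted as 0. It was 0.09 over the 22 genes above the floor on at least 1 of the SCM arrays. In DMEM none was 2-fold higher, 1 was 2-fold lower and 9 had such a bound. S100P, a calcium-binding protein of the gut and of many carcinomas, read 262 and 63.1 in DMEM and 803 and 3098 in SCM (control, knockdown). Its log2 ratio was 1.95 in SCM, while in DMEM the knockdown signal was under the floor and below the control signal. SLPI, a secreted inhibitor of leukocyte proteases, read 59.2 and 119.8 in DMEM and 226 and 810 in SCM, with a log2 ratio of 1.84 in SCM and both DMEM signals under the floor. LCN2, a secreted lipocalin that binds bacterial siderophores, read 7898 and 2637 in DMEM and 23827 and 19488 in SCM. It was thus lower with the knockdown in DMEM (log2 -1.58) and differed little in SCM (-0.29).

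Among 20 measured regulators of secretory epithelia, 12 were above the floor on all 4 arrays. The others were under it on all 4 and gave no ratio. FOXA2 alone was 2-fold higher in SCM, where 1.71% of all genes were, and nothing is read from that count. None was 2-fold higher or lower in DMEM, where 1.16% of all genes were higher. FOXA2, a forkhead factor of endoderm and its glands, read 551 and 765 in DMEM and 778 and 1862 in SCM (log2 0.47 and 1.26). SPDEF, the ETS factor of goblet cells, read 1368 and 1547 in DMEM and 1656 and 2251 in SCM. The SPDEF probe set is also of a type whose probes can match other transcripts, so part of this signal may come from them. Of 23 epithelial identity genes none was 2-fold different in SCM, 5 of them by a bound alone, and nothing is read from that. In DMEM 1 was lower, JUP (plakoglobin, of desmosomes and adherens junctions), with 2271 in control and 1049 in knockdown cells (log2 -1.11). The 1st percentile of all genes in that comparison was a log2 ratio of -0.90. Of these 23 genes, 19 were above the floor on at least 1 array and 12 on all 4. CDH1, the E-cadherin of epithelial junctions, was among the few under the floor on all 4 arrays.

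The families of the 7 genes were counted as well, without the genes themselves. Since 1.71% of all genes were 2-fold higher in SCM and 1.16% in DMEM, a count of 0 in lists of this size sets no family apart. The 30 genes of folding and secretion in the endoplasmic reticulum were all above the floor on every array. None was 2-fold higher or lower with PIAS1 shRNA2 in either medium, with median log2 ratios of 0.04 in SCM and 0.00 in DMEM. Between the media 9 were 2-fold higher in SCM in control cells and 10 in knockdown cells, beside 8.26% and 8.48% of all genes. None of the 12 other disulfide isomerases read 2-fold apart in either medium, but PDIA2 in SCM, with 261 in control and 17.1 in knockdown cells, had only a bound and may differ more. Of 24 other tetraspanins 1 was 2-fold lower in SCM, TSPAN15, with 1201 in control and 553 in knockdown cells. ROM1 (275 in control, 27.5 in knockdown) and UPK1B (208 and 44.1) had only bounds under 2-fold in SCM and may differ more. None of 10 other annexins, 4 genes of the RNase A family and its inhibitor, 5 chitinase relatives or 5 ubiquitin ligases of the RNF128 family read 2-fold apart by its value or bound. Bounds under 2-fold, which leave a larger difference possible, were those of RNASE2 in DMEM (104 in control, 287 in knockdown), OVGP1 in SCM (143 and 354), CHI3L1 in DMEM (225 and 51.2) and ZNRF4 in SCM (243 and 81.3). Of 9 other lipocalins LCN2 alone did, in DMEM. LCN1, the tear lipocalin, read 10.2, 33.9 and 23.6 on the other arrays and 339 in knockdown cells in SCM, a ratio in SCM of at least 0.90 in log2 and so also a bound under 2-fold.

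**Figure D5:**
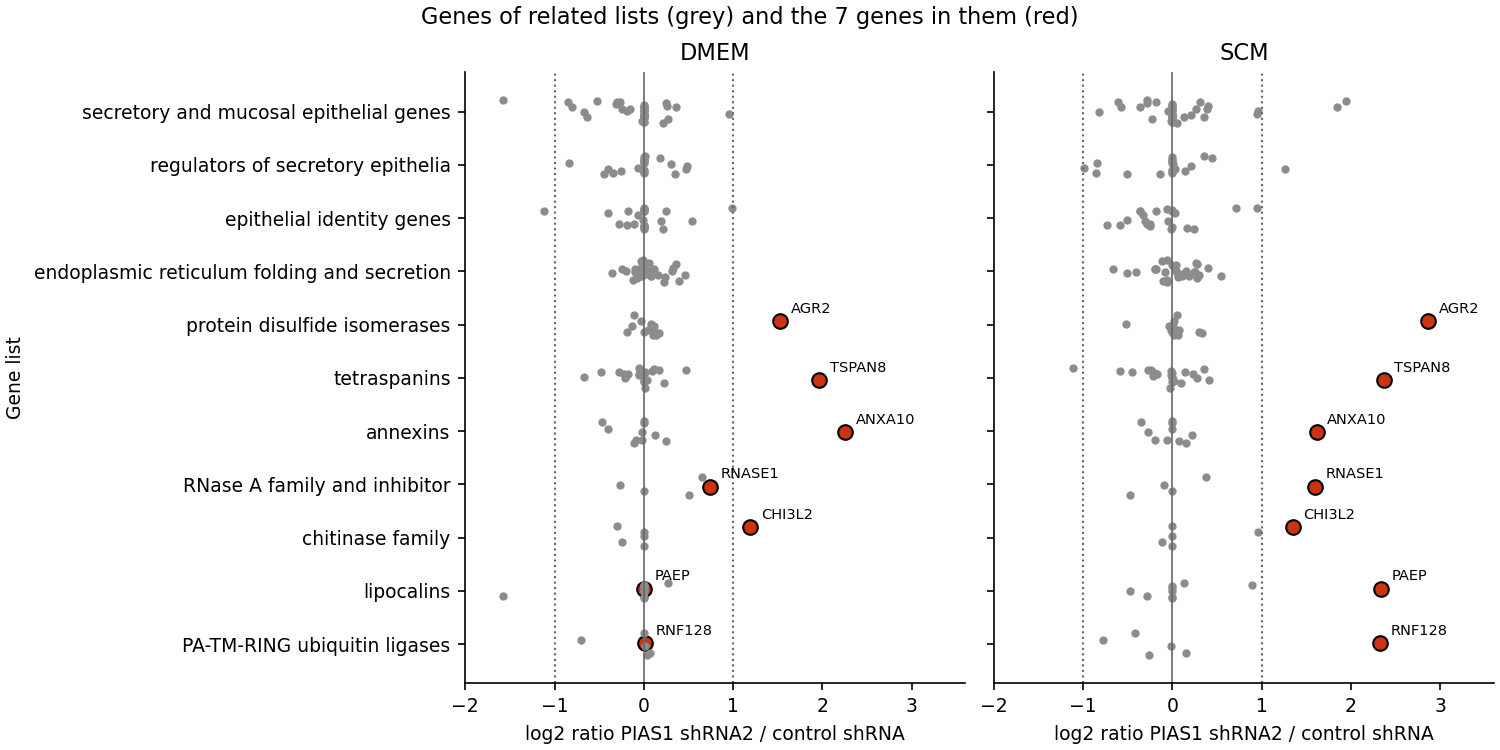
Knockdown over control (log2 ratio of signals) in DMEM (left) and SCM (right) for the genes of each list, 1 point per gene, grey for other genes and red for the 7 genes in their own family, with a small vertical scatter for legibility and dotted lines at 2-fold. Bounds are drawn at their bound, so the order of points that are bounds, such as RNASE1 and RNASE2 in DMEM, is not settled, while AGR2, TSPAN8 and ANXA10, above the floor on all arrays, are drawn past 2-fold in both panels.

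The nearest measured genes on either side of each of the 7 were read next. Of 14 such neighbours, 9 were above the floor on at least 1 array, none reached 2-fold with PIAS1 shRNA2 in SCM (2 by a bound alone), and in DMEM 1 was higher and 1 lower. Beside them, 1.71% and 1.16% of all genes were higher, and nothing is read from these counts of 14. The higher one was LGR5, a Wnt pathway receptor near TSPAN8 on chromosome 12, with 167 and 465 in DMEM and 31.9 and 192 in SCM (control, knockdown). Its log2 ratio was at least 1.35 in DMEM and at least 0.07 in SCM. The lower one was DENND2D, beside CHI3L2 on chromosome 1, with 807 and 330.1 in DMEM and 705 and 407 in SCM (log2 -1.29 and -0.79). TBC1D8B, the gene next to RNF128, read 253 and 467 in DMEM and 1662 and 2551 in SCM (log2 0.88 and 0.62), above the floor on all arrays where RNF128 was not. The flanks of AGR2 were level with knockdown: TSPAN13 read 844 and 813 in DMEM and 1787 and 1768 in SCM, and AHR, the aryl hydrocarbon receptor, had log2 ratios of 0.26 and 0.18. The remaining neighbours, PTPRR, OBP2A, CAMSAP1, SPOCK3, DDX60, RNASE6, RNASE2CP, CHIA and RADX, had log2 ratios from -0.38 to 0.84 or were under the floor.

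Genes outside the group with the nearest profile over the 4 arrays were found by the same root mean square distance among 9708 genes above the floor on at least 1 array, which describes 4 values per gene and no more. Nearest to AGR2 were NR2F1, an orphan nuclear receptor (distance 0.31), RGS2, a regulator of G protein signalling (0.42), HEY1, a Notch target (0.50), IL11, a cytokine (0.53), and SERPINE2, a protease inhibitor (0.58). NR2F1 read 191 and 397 in DMEM and 590.5 and 2659 in SCM (control, knockdown). Like AGR2, it read highest in knockdown cells in SCM and lowest in control cells in DMEM, a likeness that the search by profile brings with it. Nearest to the median profile of the 7 genes were SERPIND1, the protease inhibitor heparin cofactor II (0.21), PID1 (0.25), PAPPA, a metalloproteinase that cleaves IGF-binding proteins (0.26), MAN1A1, a Golgi mannosidase (0.28), and NEBL (0.30). PAPPA read 216 and 483 in DMEM and 467 and 1386 in SCM, with log2 ratios of 1.17 and 1.57.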

How the data were processed

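Total RNA from 4 MDA-MB231 cultures was labelled by the authors and hybridised to Affymetrix human expression arrays. The deposited table holds linear MAS5 signal intensity values, and its trimmed mean (2% at each end) is the same on each array; no source used here gives the MAS5 version, the scaling target or detection calls. No depth applies to arrays, and their number, 1 per condition, limits the precision. Of 22277 probe sets, 19070 had 1 gene in the platform gene table, 1043 had several and 2164 had none; 19058 of the former matched RefSeq (GRCh38.p14) by Entrez number. Of several probe sets of a gene, the one brightest on average (log2) stood for it. The floor was taken from 65 probe sets of 53 genes of other tissues, and at least 2-fold counted as higher. The 7 genes, the gene lists and the floor rule were chosen with earlier results of these data known. Named in the text are the 7 genes in every comparison, up to 4 listed genes per list at least 2-fold different with knockdown, the nearest measured neighbours, PIAS1 and the 5 nearest profiles. SPDEF, CDH1, LCN1, PDIA2, ROM1, UPK1B, RNASE2, OVGP1, CHI3L1 and ZNRF4 and the luminal markers were named after their values were seen. Alternatives were no floor, a floor at the 95th percentile of the same genes, a floor at the highest array median, scaling to a common median, quantile normalization and the mean of all probe sets of a gene. Calculations used Python 3.11.15, NumPy 2.4.6, pandas 2.3.3 and matplotlib 3.10.9. The ratio step was checked on simulated data in which only bright genes were changed, so ratios that are bounds at the floor were not checked. No test was made.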

Additional observations from a re-analysis of the deposited data

How the results depend on the processing

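Of 168 values made by recomputing the 28 ratios of the 7 genes under 6 alternatives, none of those at least 2-fold reversed and 29 moved by over 1.5-fold, all but 1 of them with the choice of floor. The ratio of TSPAN8 between media in control cells, 0.08 in log2, was -0.01 with scaling to a common median and with quantile normalization, so its sign is not settled. The number of the 7 genes at least 2-fold higher with knockdown in SCM was 6 or 7 except with the floor at the highest array median (605), where it was 4. In DMEM that floor left 2 of 7. Between media in control cells the number was 1 with the floor at the 95th percentile of those other-tissue genes (415) and 0 at the array median, and in knockdown cells it was 2 at the array median. These floors lie above more control signals, so that ratios become smaller bounds. With the floor at the 95th percentile the log2 bounds in SCM were 1.16 for PAEP, 1.14 for RNF128 and 0.42 for RNASE1, and that of CHI3L2 in DMEM was 0.01. Between media in knockdown cells RNF128 then had 1.14, or 0.60 once the array median set the floor. Taking the mean of both RNASE1 probe sets gave 0.80 in SCM. Over all genes the number at least 2-fold higher with knockdown was 1012 in SCM and 1248 in DMEM with no floor, 107 and 43 at the 95th percentile and 81 and 31 at the array median. Between media it was 2216 in control and 1978 in knockdown cells with no floor, and at the array median 631 and 662. No replicate pairs exist and no array could be left out, since each condition had 1 array. A fit of shRNA and medium as additive terms over the 4 arrays was not run.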
